A study of Homo sapiens with 12 samples.

Results

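Interferon-stimulated genes were followed in the established human cell lines SU-DHL-8 and Farage, both from diffuse large B cell lymphoma, after 12 h with morusinol or with vehicle. The set held 47 genes, picked by name in the deposited expression table, and all 47 were found among its 61466 genes. The 4 groups were SU-DHL-8 with morusinol, SU-DHL-8 control, Farage with morusinol and Farage control, each with 3 libraries from total RNA. Both lines are labelled wild type and of lymph node tissue, and the control cells received vehicle without the compound. Morusinol is a prenylated flavonoid from the root bark of mulberry. The sources used here give no dose. They also do not say that the 3 libraries of a group came from separate cultures, so the p-values measure the spread between these libraries, which may be technical.

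Type I interferons bind the receptor chains IFNAR1 and IFNAR2, and the kinases TYK2 and JAK1 then activate STAT2, which acts with IRF9 in a complex that binds a short promoter element, the interferon-stimulated response element (ISRE). Interferon gamma acts through IFNGR1, IFNGR2, JAK1 and JAK2 on another element, the gamma-activated site (GAS). The genes induced include transcription factors of the pathway itself, sensors of viral RNA, enzymes and membrane proteins that restrict viruses, and USP18, which damps signalling at the receptor.

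The ISRE core was searched on both strands as GAAA, any 2 bases and GAAA again, and the GAS core as TTCNNNGAA, in windows of 250 bases before to 50 bases after each annotated start. RefSeq windows of build GRCh38.p14 were matched by symbol for 36 of the 47 genes. IRF2, IRF7, IFIT2, IFITM2, MX2, OAS2, OASL, USP18, DHX58, GBP2 and TRIM22 were not matched. ISRE letters stood in 28 of the 49 windows of the matched genes, 57.1%, against 3.57% of all 35116 windows. GAS letters stood in 13 of the 49 windows, 26.5%, against 7.66% of all windows. Counted by gene, 24 of the 36 held ISRE letters and 12 held GAS letters. The following stretches carry ISRE letters of genes called higher and genes called lower after morusinol, with each ISRE match of the stretch in capitals. The IFIH1 window held 3 matches, and only the match nearest the start is shown. Overlapping matches run together in one block of capitals in ISG15 and BST2. In GBP1 the capitals are the match read on the opposite strand. DTX3L and PARP9 are transcribed head to head. The DTX3L start and an annotated start of PARP9 have 37 bases between them, so a single stretch serves both. Another annotated PARP9 start has its own window, chr3:122564735-122565034, which held no ISRE letters.
ISG15 (chr1:1013364-1013419, plus strand): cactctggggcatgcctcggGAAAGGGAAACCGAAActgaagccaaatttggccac
BST2 (chr19:17405725-17405780, minus strand): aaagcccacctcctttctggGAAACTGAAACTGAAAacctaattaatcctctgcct
GBP1 (chr1:89065306-89065355, minus strand): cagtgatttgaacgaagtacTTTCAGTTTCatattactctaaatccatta
ISG20 (chr15:88638927-88638976, plus strand): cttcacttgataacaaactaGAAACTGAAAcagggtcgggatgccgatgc
IFIH1 (chr2:162318685-162318725, minus strand): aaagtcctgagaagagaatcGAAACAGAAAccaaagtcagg
EPSTI1 (chr13:42992262-42992311, minus strand): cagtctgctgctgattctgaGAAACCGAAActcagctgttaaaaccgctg
DTX3L and PARP9 (chr3:122564301-122564345, plus strand): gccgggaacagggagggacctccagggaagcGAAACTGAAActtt
In ISG15, BST2 and GBP1 the match nearest the start began 107, 124 and 127 bases before it. It began 69 bases before the start in ISG20, 50 in EPSTI1 and 21 in IFIH1. The DTX3L match began 6 bases before that gene's start and ran past it.

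Levels are given as FPKM, fragments scaled by the length of the gene's transcripts and by the depth of the library, so that genes are compared per length. Depth, estimated from the spacing of low FPKM values, was 6054000 to 14960000 fragments in SU-DHL-8 with morusinol, 14200000 to 15230000 in SU-DHL-8 control, 9365000 to 12650000 in Farage with morusinol and 16580000 to 18960000 in Farage control. All 3 Farage morusinol libraries were thus shallower than all 3 Farage control libraries, and the part of this in the results below was not tested. Correlations of log2(FPKM + 1) were 0.964 to 0.980 between libraries of a group and 0.922 to 0.937 between morusinol and control libraries of a line. The 6 B cell markers summed to 230.1 to 238 FPKM in SU-DHL-8 with morusinol, against 353.9 to 367.8 FPKM in SU-DHL-8 control. They summed to 612.8 to 659.9 FPKM in Farage with morusinol, against 965.9 to 1021 FPKM in Farage control. None of the 6 was at 0 in a group, whereas markers of plasmacytoid dendritic, myeloid, T and NK, and stromal and epithelial cells summed to at most 2.88 FPKM in any library. The summed level of the 6 B cell markers was thus lower with morusinol in both lines. Of the 6, 2 were called higher in SU-DHL-8 and 4 lower by the limma test described below. The background over all tested genes was 25.1% higher and 21.6% lower. Log2 fold changes there were 0.35 ± 0.102 in CD79B and -2.004 in CD79A, the signalling chains of the B cell receptor. In Farage 5 were called lower, where the background was 21.2%, and CD79A was not called (log2 fold change -0.06 ± 0.0645, adjusted p = 0.536). The part of these markers in the results below was not tested. In bulk RNA, fewer cells making a transcript and less of it per cell cannot be told apart.

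Of the 47 genes, 33 reached 1 FPKM in at least 3 libraries and entered the test, and 16 of these did so in every library. GBP2 reached 1 FPKM only in SU-DHL-8 with morusinol, so its passing the filter rests on the group where it was high. IRF9, IFITM3, MX1, OAS3 and EPSTI1 reached it in no SU-DHL-8 library. The 14 genes below the filter were IFI27, IFI44, IFI44L, IFIT1, IFIT2, IFIT3, OASL, RSAD2, HERC5, HERC6, DDX60, RIGI, XAF1 and CMPK2, several of them textbook markers of an interferon response. A gene was called where limma, fitted on log2(FPKM + 1) of all 17574 genes that passed the filter, gave an adjusted p under 0.05. Every fold change below is on this scale unless a ratio of mean FPKM is named, and it understates the change of low genes. A log2 value is followed by ± its standard error, and a mean FPKM by ± the SD over the 3 libraries.

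In control cells the lines differed in most of these genes. Farage control exceeded SU-DHL-8 control in the signalling factors STAT2, IRF7 and IRF9, in MX1, and in EPSTI1, an epithelial-stromal interaction protein gene. Farage control had less IFI16, MX2, SP110 and IFIT5. Of the 33 tested genes, 19 were higher in Farage control, where the background over all tested genes was 34.5%, and 11 were lower, where it was 29.6%. The median difference of the 33 was 0.59, against 0.08 over all genes, and 30 were called in either direction against a background of 64.1%. IRF9, IFITM3, MX1, OAS3 and EPSTI1, all among the 19, passed the filter only through Farage libraries, where they were high. The counts and the median thus rest in part on the filter.
The median of the 47 group means was 2.67 FPKM in Farage control and 1.39 FPKM in SU-DHL-8 control. Farage control had 17 genes and SU-DHL-8 control 14 genes with a mean of at least 5 FPKM. EPSTI1 had 6.75, 6.21 and 6.09 FPKM in Farage control, against 0.0933, 0.136 and 0.165 FPKM in SU-DHL-8 control (log2 difference 2.70 ± 0.0636, adjusted p = 5.26e-11). The groups stood far apart, with every SU-DHL-8 value under 1 FPKM. IFI16, a nuclear DNA sensor, had 48.6, 48.5 and 47.4 FPKM in Farage control, against 115, 115 and 117 FPKM in SU-DHL-8 control (log2 difference -1.25 ± 0.0437, adjusted p = 1.23e-09). It was the highest of the 47 genes in SU-DHL-8 control, and in Farage control the highest was BST2, with a mean of 53.5 ± 4.58 FPKM. IFIT5, an RNA-binding protein, averaged 0.957 ± 0.194 FPKM in Farage control and 8.19 ± 1.65 FPKM in SU-DHL-8 control. The groups of IFIT5 did not overlap. DTX3L was called lower in Farage control (log2 difference -0.26, adjusted p = 0.0435), and lost that call in 8 of the 12 fits that left out 1 library, with adjusted p up to 0.117: those without any one of the 6 control libraries, and those without Farage morusinol replicate 2 or 3.

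**Figure D1:**
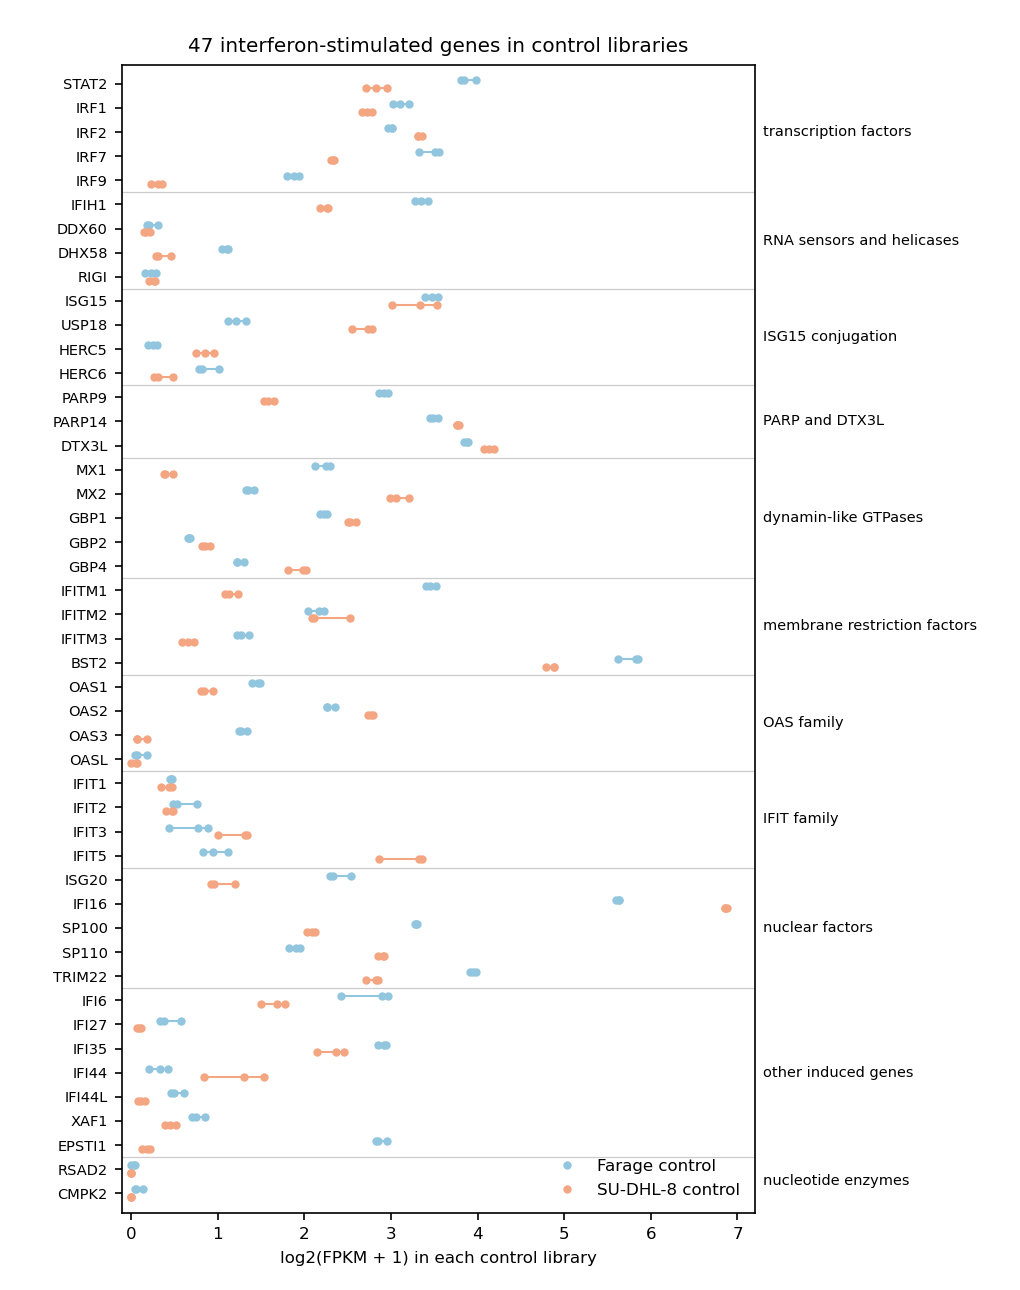
Levels of the 47 genes in control libraries, as log2(FPKM + 1) on the horizontal axis. Each point is 1 library, lines join the lowest and highest of a line's 3, and genes are grouped by role; EPSTI1 and IFIT5 show the lines apart in opposite directions, and OASL, RSAD2 and CMPK2 lie near 0 in both.

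In SU-DHL-8, morusinol was followed by changes in opposite directions within the set. STAT2 rose to 3.65 times its control mean, and IRF7, the RNA sensor IFIH1, the exonuclease gene ISG20 and GBP2 rose with it. USP18, DTX3L, PARP9, BST2, GBP1 and IFITM2 fell. Of the 33 genes tested, 12 were called higher, where the background was 25.1%, and 11 lower, where it was 21.6%. GBP2, among the 12, passed the filter only through SU-DHL-8 with morusinol, where it was high. The 23 called in either direction compare with a background of 46.8%. The median difference of the 33 was -0.00, against 0.02 over all genes. Under rescaling to TPM and under median-of-ratios scaling the 33 genes split 9 higher to 12 lower, as IRF2, IFI16 and MX2 lost their calls and IFIT5 was called lower. Of all called genes 44.15% were then higher under TPM and 45.7% under median of ratios, against 53.7% as deposited.

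In Farage, 17 of the 19 called genes fell. GBP1 had the largest fall among the 33, followed by ISG15, BST2, IFI6, IFI35, USP18 and OAS2. IRF1 and EPSTI1 were the 2 called higher. The 17 called lower compare with a background of 21.2%, and the 2 called higher with one of 21.9%. The 19 called in either direction compare with a background of 43.1%. The median difference of the 33 was -0.21, against -0.03 over all genes.

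The responses of the lines were compared directly, as the Farage change minus the SU-DHL-8 change. It was lower in Farage for 15 genes, where the background was 17.6%, among them STAT2, GBP2, IFIH1, ISG20 and IRF7. It was higher in Farage for 5 genes, where the background was 17.3%: DTX3L, USP18, IFITM2, PARP9 and PARP14. The 20 genes compare with a background of 34.9%, and the median difference was -0.32, against -0.07 over all genes. Among the 15 lower in Farage, GBP2 passed the filter only through SU-DHL-8 with morusinol, where it was high. Under rescaling to TPM, 61.6% of all called differences were higher in Farage, and under median-of-ratios scaling 60.5%, against 49.6% as deposited; the 33 genes then split 6 higher to 14 lower and 6 higher to 15 lower. Across the 33 genes the responses correlated with Pearson's r = 0.450 and Spearman's rho = 0.430, against 0.406 and 0.404 across all tested genes. These are descriptions across genes, which are not independent replicates.

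**Figure D2:**
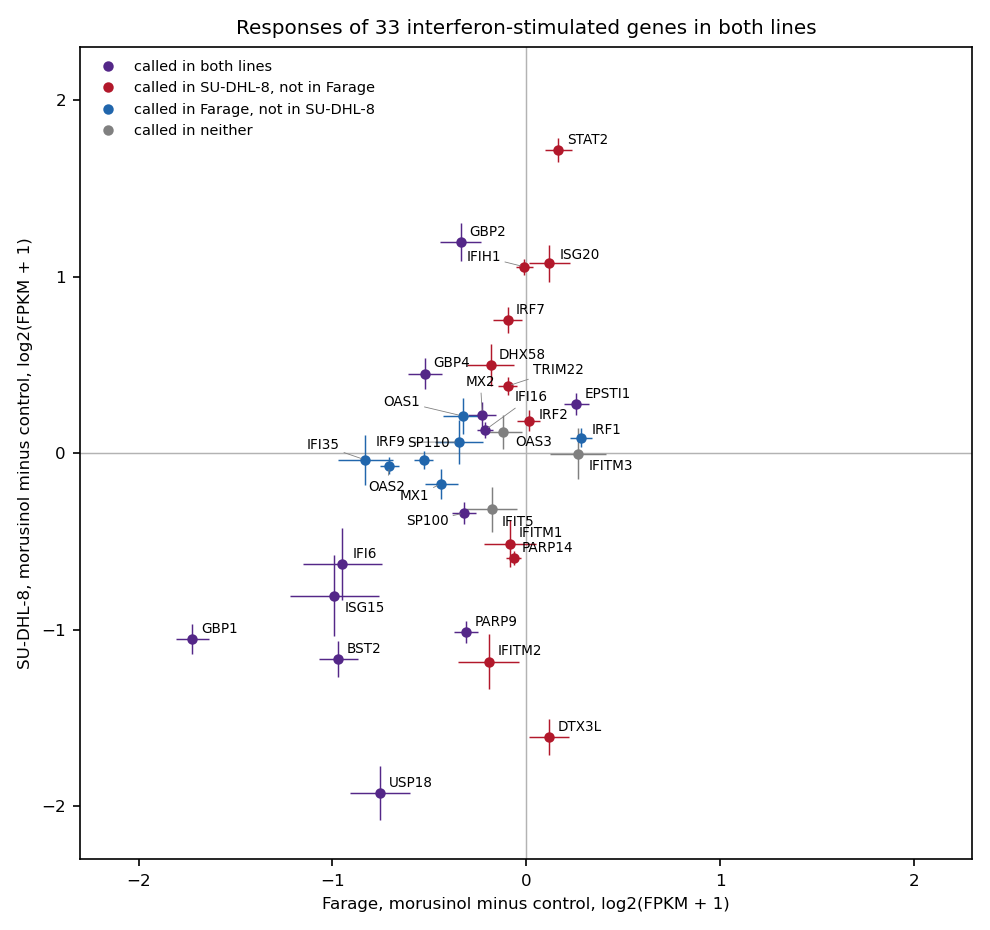
Change after morusinol in Farage (horizontal axis) and SU-DHL-8 (vertical axis), each as morusinol minus control in log2(FPKM + 1), with bars of 1 standard error. Colours mark the lines in which a gene was called; STAT2 lies high at 1.72 in SU-DHL-8 and 0.17 in Farage, and USP18, GBP1 and BST2 lie low in both.

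**Figure D3:**
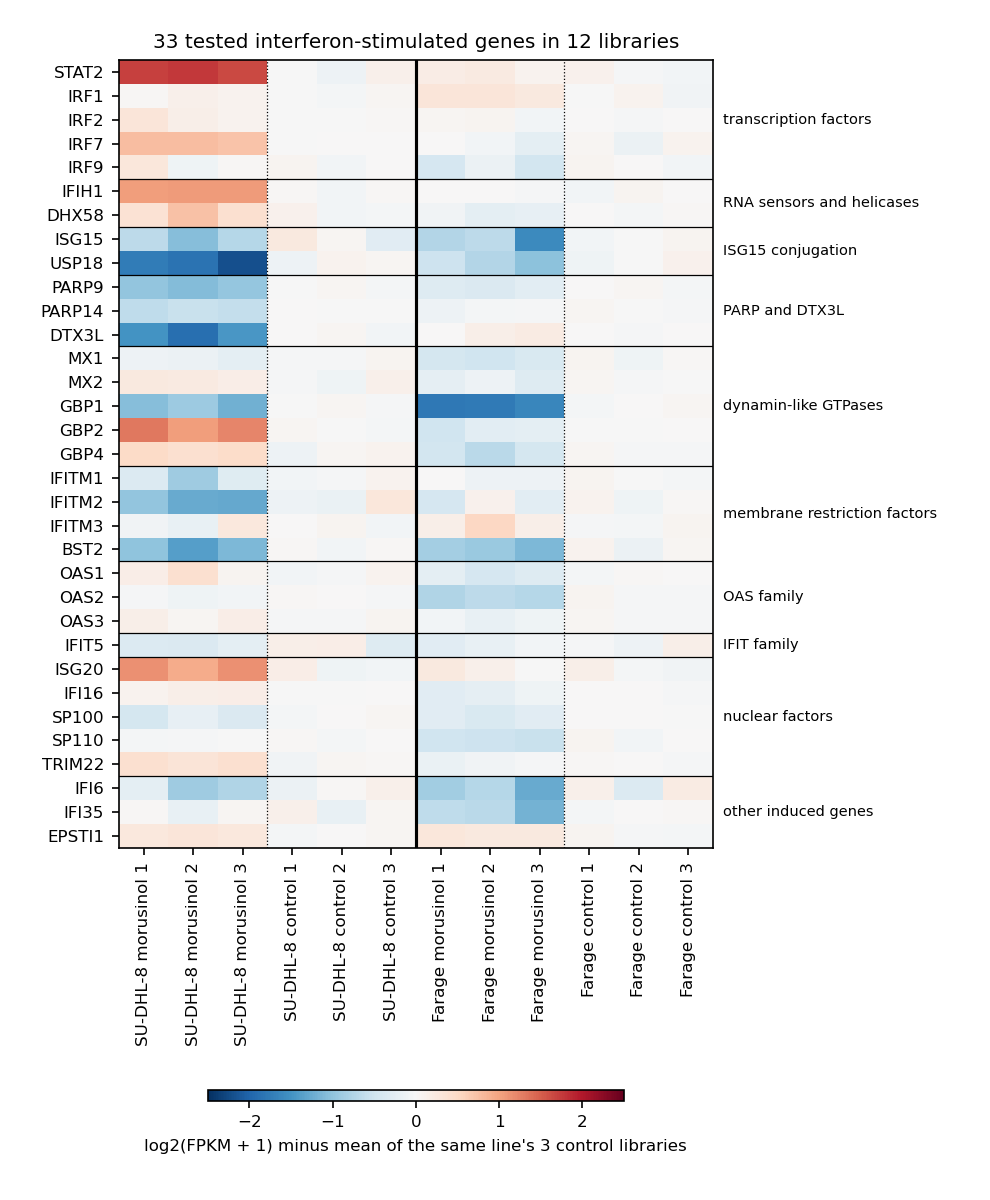
Deviation of each library from the mean of its own line's control libraries, in log2(FPKM + 1), for the 33 tested genes by role. Red is higher and blue lower; both red and blue rows appear in SU-DHL-8 with morusinol, while Farage with morusinol is mostly blue, with GBP1 the darkest.

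Among the transcription factors, STAT2, a subunit of the ISRE-binding complex, had the largest rise of the 33 genes in SU-DHL-8. Its values were 22.3, 23.4 and 21.5 FPKM in SU-DHL-8 with morusinol, against 6.11, 5.54 and 6.73 FPKM in SU-DHL-8 control (log2 fold change 1.72 ± 0.0691, adjusted p = 1.79e-08). In Farage they were 15.7, 16.3 and 14.7 FPKM with morusinol, against 14.8, 13.4 and 13.1 FPKM in control (log2 fold change 0.17 ± 0.0691, adjusted p = 0.0789). The treated SU-DHL-8 libraries stood above every other library, and the Farage groups overlapped. STAT2 in Farage passed the threshold without Farage control replicate 1, with adjusted p = 0.0398, under median-of-ratios scaling, with adjusted p = 0.0496, and after rescaling over protein-coding genes, with adjusted p = 0.0237. The responses of the lines differed (log2 difference -1.55 ± 0.0977, adjusted p = 1.67e-06). No ISRE letters stood in the matched STAT2 window.

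IRF7, a master regulator of type I interferon genes, had 7.57, 7.62 and 7.19 FPKM in SU-DHL-8 with morusinol, against 3.96, 4.04 and 4.05 FPKM in control (log2 fold change 0.75 ± 0.0730, adjusted p = 1.06e-05). In Farage it had 10.1, 9.59 and 8.36 FPKM with morusinol, against 10.4, 8.99 and 10.8 FPKM in control (log2 fold change -0.10 ± 0.0730, adjusted p = 0.329). The groups did not overlap in SU-DHL-8, and IRF7 was not called in Farage. The responses differed (log2 difference -0.85 ± 0.103, adjusted p = 0.000140). IRF1, an activator downstream of interferon gamma, had 9.63, 9.73 and 9.23 FPKM in Farage with morusinol, against 7.62, 8.23 and 7.14 FPKM in control (log2 fold change 0.28 ± 0.0544, adjusted p = 0.00172). In SU-DHL-8 it had 5.79, 6.28 and 6.06 FPKM with morusinol, against 5.63, 5.37 and 5.90 FPKM in control (log2 fold change 0.09 ± 0.0544, adjusted p = 0.236). The IRF1 difference between the responses did not pass the test (adjusted p = 0.0730), and 22.0% of its exon length overlaps C5orf56 on the opposite strand. The sources used here do not name the strand of counting, so reads of overlapping genes may not be told apart.
IRF2, a relative of IRF1 that can oppose it, had 11.5, 10.2 and 9.64 FPKM in SU-DHL-8 with morusinol, against 8.91, 8.92 and 9.28 FPKM in control (log2 fold change 0.18 ± 0.0587, adjusted p = 0.0253). That call was lost without control replicate 1 (adjusted p = 0.0730), control replicate 2 (0.0688) or morusinol replicate 1 (0.0869, with the change down to 0.12), after rescaling to TPM (0.328) and under median-of-ratios scaling (0.269). The IRF2 call was lost as well with SU-DHL-8 fitted alone (adjusted p = 0.0714) and with the replicate number as a block (0.0691). In Farage IRF2 had 7.205, 7.33 and 6.63 FPKM with morusinol, against 7.06, 6.82 and 7.07 FPKM in control, and was not called. IRF9, the DNA-binding subunit of the ISRE-binding complex, had 1.73, 2.295 and 1.67 FPKM in Farage with morusinol, against 2.83, 2.69 and 2.49 FPKM in control (log2 fold change -0.35 ± 0.125, adjusted p = 0.0466). The IRF9 call in Farage was lost in 9 of the 12 fits without 1 library, with adjusted p up to 0.134: all but those without SU-DHL-8 morusinol replicates 1 and 2 and Farage morusinol replicate 2. It was also lost under median-of-ratios scaling (adjusted p = 0.0554) and after rescaling over protein-coding genes (0.0819). Further losses came with a pseudocount of 0.1 (adjusted p = 0.261) and with Farage fitted alone (0.0559). The call was lost too with the replicate number as a block (0.0647) and with all genes above 0 in at least 3 libraries tested (0.0667). In SU-DHL-8 IRF9 stayed under 1 FPKM, at 0.493, 0.138 and 0.252 FPKM with morusinol against 0.284, 0.177 and 0.236 FPKM in control. Of its exon length, 48.4% is shared with AL136295.5 on the same strand.

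The RNA sensor genes IFIH1 and DHX58 rose in SU-DHL-8. IFIH1, which encodes the cytosolic sensor MDA5, had 8.77, 8.85 and 8.87 FPKM with morusinol, against 3.81, 3.54 and 3.85 FPKM in control (log2 fold change 1.05 ± 0.0454, adjusted p = 2.63e-08). The Farage values were 9.25, 9.20 and 8.96 FPKM with morusinol, against 8.68, 9.74 and 9.20 FPKM in control (log2 fold change -0.01 ± 0.0454, adjusted p = 0.902). The SU-DHL-8 groups were far apart and the Farage groups overlapped, and the responses differed (log2 difference -1.06 ± 0.0642, adjusted p = 1.26e-06). DHX58, which encodes the sensor LGP2, averaged 0.817 ± 0.266 FPKM in SU-DHL-8 with morusinol and 0.279 ± 0.0858 FPKM in control (log2 fold change 0.50 ± 0.120, adjusted p = 0.00582). In Farage DHX58 averaged 0.880 ± 0.108 FPKM with morusinol and 1.13 ± 0.0516 FPKM in control, and was not called. RIGI, the remaining sensor of this family, reached at most 0.221 FPKM in any library.

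ISG15 and its protease USP18 were called lower in both lines. ISG15, a ubiquitin-like protein, had 5.24, 3.71 and 5.01 FPKM in SU-DHL-8 with morusinol, against 10.6, 9.10 and 7.10 FPKM in control (log2 fold change -0.81 ± 0.229, adjusted p = 0.0140). It had, in Farage, 5.70, 6.03 and 2.69 FPKM with morusinol, against 9.52, 10.1 and 10.7 FPKM in control (log2 fold change -0.99 ± 0.229, adjusted p = 0.00523). The groups did not overlap in either line. Its SU-DHL-8 call was lost without control replicate 1 (adjusted p = 0.0560) or morusinol replicate 2 (0.0549), with changes of -0.69 and -0.68, and no single library ended the Farage call. USP18, which removes ISG15 from its targets and limits interferon signalling, had 0.926, 0.800 and 0.414 FPKM in SU-DHL-8 with morusinol, against 4.88, 5.86 and 5.66 FPKM in control (log2 fold change -1.92 ± 0.153, adjusted p = 2.37e-06). In Farage it had 0.638, 0.402 and 0.151 FPKM with morusinol, against 1.18, 1.32 and 1.51 FPKM in control (log2 fold change -0.75 ± 0.153, adjusted p = 0.00244). Every treated value lay below every control value of its line, and the fall was smaller in Farage (log2 difference 1.17 ± 0.217, adjusted p = 0.00204). The treated Farage values of USP18 rest on an estimated 17.2, 8.0 and 3.4 fragments. USP41, a near-identical copy of USP18, was at 0 in 10 of the 12 libraries and reached at most 0.0931 FPKM.

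PARP9, DTX3L and PARP14, which encode ADP-ribosyltransferases and the ubiquitin ligase partner of PARP9, fell together in SU-DHL-8. DTX3L had 5.26, 3.74 and 5.43 FPKM with morusinol, against 16.6, 17.3 and 15.8 FPKM in control (log2 fold change -1.61 ± 0.102, adjusted p = 4.54e-07). The Farage values were 13.6, 15.3 and 15.8 FPKM with morusinol, against 13.6, 13.4 and 13.8 FPKM in control (log2 fold change 0.12 ± 0.102, adjusted p = 0.402). The SU-DHL-8 groups were well separated and the Farage groups were close together, and the difference between the responses was the most positive of the 33 (log2 difference 1.73 ± 0.145, adjusted p = 1.19e-05). PARP9 had 0.508, 0.425 and 0.538 FPKM in SU-DHL-8 with morusinol, against 2.002, 2.13 and 1.90 FPKM in control (log2 fold change -1.01 ± 0.0602, adjusted p = 2.68e-07). It had, in Farage, 5.07, 4.92 and 5.31 FPKM with morusinol, against 6.58, 6.83 and 6.29 FPKM in control (log2 fold change -0.31 ± 0.0602, adjusted p = 0.00180). PARP9 fell in both lines, by less in Farage (log2 difference 0.70 ± 0.0852, adjusted p = 0.000136). PARP14 had 7.81, 8.25 and 8.08 FPKM in SU-DHL-8 with morusinol, against 12.8, 12.6 and 12.6 FPKM in control (log2 fold change -0.59 ± 0.0397, adjusted p = 6.31e-07), and the responses differed (log2 difference 0.53 ± 0.0561, adjusted p = 5.47e-05). In Farage PARP14 had 9.31, 9.89 and 10.1 FPKM with morusinol, against 10.6, 10.2 and 9.95 FPKM in control, and was not called. PARP9 and DTX3L, whose shared upstream stretch is shown above, overlap by 217 bases on opposite strands, 2.43% of the exon length of PARP9 and 3.70% of that of DTX3L.

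The dynamin-like GTPase genes moved in both directions. GBP1, a guanylate-binding protein of cell-autonomous immunity, had 0.356, 0.376 and 0.512 FPKM in Farage with morusinol, against 3.53, 3.67 and 3.79 FPKM in control (log2 fold change -1.72 ± 0.0842, adjusted p = 1.02e-07). The SU-DHL-8 values were 1.80, 2.11 and 1.54 FPKM with morusinol, against 4.75, 5.04 and 4.69 FPKM in control (log2 fold change -1.05 ± 0.0842, adjusted p = 2.38e-06). The control mean was 8.83 times the treated mean in Farage and 2.65 times in SU-DHL-8, and the fall was larger in Farage (log2 difference -0.67 ± 0.119, adjusted p = 0.00158). Its relatives GBP2 and GBP4 went the other way in SU-DHL-8. GBP2 had 3.52, 2.76 and 3.25 FPKM in SU-DHL-8 with morusinol, against 0.886, 0.804 and 0.768 FPKM in control (log2 fold change 1.19 ± 0.107, adjusted p = 5.68e-06), and the responses differed (log2 difference -1.53 ± 0.151, adjusted p = 3.42e-05). GBP4 averaged 4.24 ± 0.143 FPKM in SU-DHL-8 with morusinol and 2.84 ± 0.304 FPKM in control (log2 fold change 0.45 ± 0.0877, adjusted p = 0.00155), and fell in Farage, where it averaged 0.658 ± 0.142 FPKM with morusinol and 1.38 ± 0.0810 FPKM in control (log2 fold change -0.52 ± 0.0877, adjusted p = 0.000714). The lines thus moved apart for GBP4 (log2 difference -0.97 ± 0.124, adjusted p = 0.000192). GBP2 in Farage stayed under 1 FPKM, at 0.120, 0.333 and 0.336 FPKM with morusinol against 0.588, 0.581 and 0.605 FPKM in control (log2 fold change -0.34 ± 0.107, adjusted p = 0.0263), and lost its call without any one of the 3 control replicates or morusinol replicate 1, with adjusted p up to 0.0901. The Farage call of GBP2 was lost too with the replicate number as a block (adjusted p = 0.0614). MX1, an antiviral GTPase, averaged 2.45 ± 0.140 FPKM in Farage with morusinol and 3.67 ± 0.294 FPKM in control (log2 fold change -0.44 ± 0.0859, adjusted p = 0.00193). It had, in SU-DHL-8, 0.223, 0.202 and 0.137 FPKM with morusinol, against 0.314, 0.305 and 0.401 FPKM in control (log2 fold change -0.17 ± 0.0859, adjusted p = 0.128), and was called lower there with a pseudocount of 0.1 (-0.62, adjusted p = 0.0171).
MX2, the restriction factor also called MxB, had 9.04, 8.96 and 8.54 FPKM in SU-DHL-8 with morusinol, against 7.34, 6.92 and 8.23 FPKM in control (log2 fold change 0.22 ± 0.0715, adjusted p = 0.0301). In Farage it averaged 1.21 ± 0.155 FPKM with morusinol and 1.58 ± 0.0861 FPKM in control (log2 fold change -0.23 ± 0.0715, adjusted p = 0.0262). Both MX2 calls depended on single libraries, on the scaling and on the settings of the fit. In SU-DHL-8 the call was lost without control replicate 1 or 2 or morusinol replicate 1 or 2, with adjusted p up to 0.118, and in Farage without control replicate 1 or 3 or morusinol replicate 1 or 3, with adjusted p up to 0.0852. The SU-DHL-8 change of MX2 was 0.12 after rescaling to TPM (adjusted p = 0.189) and 0.14 under median-of-ratios scaling (0.145), and the Farage change was -0.19 after rescaling over protein-coding genes (0.0605).

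Of the membrane restriction factors, BST2, the tetherin that holds virions at the cell surface, had 13.3, 10.1 and 12.3 FPKM in SU-DHL-8 with morusinol, against 28.4, 26.7 and 28.4 FPKM in control (log2 fold change -1.17 ± 0.1003, adjusted p = 4.25e-06). In Farage it had 29.1, 27.4 and 24.0 FPKM with morusinol, against 56.7, 48.3 and 55.6 FPKM in control (log2 fold change -0.97 ± 0.1003, adjusted p = 2.30e-05). BST2 fell in both lines with no overlap, and the difference between the responses did not pass the test (log2 difference 0.20 ± 0.142, adjusted p = 0.321). IFITM2, which blocks viral entry, had 1.37, 0.977 and 0.936 FPKM in SU-DHL-8 with morusinol, against 3.33, 3.24 and 4.76 FPKM in control (log2 fold change -1.18 ± 0.156, adjusted p = 0.000107). In Farage IFITM2 averaged 2.91 ± 0.751 FPKM with morusinol and 3.43 ± 0.287 FPKM in control, and was not called (log2 fold change -0.19 ± 0.156, adjusted p = 0.364). IFITM1 averaged 0.581 ± 0.333 FPKM in SU-DHL-8 with morusinol and 1.22 ± 0.123 FPKM in control (log2 fold change -0.51 ± 0.134, adjusted p = 0.00915), and its change was -0.33 without morusinol replicate 2 and no longer called with SU-DHL-8 fitted alone (adjusted p = 0.0743). The treated SU-DHL-8 values of IFITM1 rest on an estimated 9.1, 1.3 and 13.0 fragments. IFITM1 had 10.1, 9.004 and 9.02 FPKM in Farage with morusinol, against 10.5, 9.91 and 9.56 FPKM in control, and was not called. Exons of IFITM1 and IFITM2 overlap on the same strand over 351 bases, 32.5% and 22.8% of their lengths, so reads there could be split between them. IFITM3 averaged 1.95 ± 0.453 FPKM in Farage with morusinol and 1.44 ± 0.118 FPKM in control, stayed under 1 FPKM in SU-DHL-8, and was called in neither line.

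The OAS genes encode enzymes whose product activates RNase L, and OAS2 had the clearest change of the 3 tested. OAS2 had 1.90, 2.11 and 2.01 FPKM in Farage with morusinol, against 4.12, 3.78 and 3.81 FPKM in control (log2 fold change -0.71 ± 0.0488, adjusted p = 1.25e-06). In SU-DHL-8 it had 5.63, 5.34 and 5.45 FPKM with morusinol, against 5.91, 5.84 and 5.65 FPKM in control (log2 fold change -0.07 ± 0.0488, adjusted p = 0.282). The Farage groups were far apart, and the responses differed (log2 difference -0.63 ± 0.0690, adjusted p = 6.47e-05). OAS1 averaged 1.18 ± 0.131 FPKM in Farage with morusinol and 1.73 ± 0.0892 FPKM in control (log2 fold change -0.33 ± 0.103, adjusted p = 0.0256), and lost this call without control replicate 2 or 3 or morusinol replicate 2 or 3, with adjusted p up to 0.0823. With the replicate number as a block the Farage call of OAS1 was lost too (adjusted p = 0.0816). In SU-DHL-8 OAS1 averaged 1.11 ± 0.243 FPKM with morusinol and 0.818 ± 0.0911 FPKM in control, and was not called. OAS3 had 1.32, 1.14 and 1.28 FPKM in Farage with morusinol, against 1.53, 1.40 and 1.38 FPKM in control, and was called in neither line. IFIT5 had 6.17, 6.03 and 6.65 FPKM in SU-DHL-8 with morusinol, against 9.02, 9.26 and 6.29 FPKM in control, and was called in neither line, though without SU-DHL-8 control replicate 3 it passed in SU-DHL-8 (-0.48, adjusted p = 0.00347), as it did after rescaling to TPM (-0.41, adjusted p = 0.0390) and under median-of-ratios scaling (-0.40, adjusted p = 0.0391).

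The nuclear factors did not move as a group. ISG20, an exonuclease, had 3.48, 2.89 and 3.49 FPKM in SU-DHL-8 with morusinol, against 1.29, 0.892 and 0.937 FPKM in control (log2 fold change 1.07 ± 0.106, adjusted p = 1.17e-05). It was not called in Farage, at 5.18, 4.70 and 4.19 FPKM with morusinol against 4.79, 4.04 and 3.90 FPKM in control, and the responses differed (log2 difference -0.96 ± 0.149, adjusted p = 0.000720). TRIM22, an antiviral ubiquitin ligase, had 8.18, 7.72 and 8.19 FPKM in SU-DHL-8 with morusinol, against 5.55, 6.19 and 6.10 FPKM in control (log2 fold change 0.38 ± 0.0493, adjusted p = 9.33e-05). In Farage TRIM22 had 12.8, 13.4 and 14.1 FPKM with morusinol, against 14.8, 14.5 and 14.1 FPKM in control, and was not called. SP110, a nuclear body protein, had 1.62, 1.59 and 1.53 FPKM in Farage with morusinol, against 2.88, 2.53 and 2.75 FPKM in control (log2 fold change -0.53 ± 0.0495, adjusted p = 1.10e-05). In SU-DHL-8 it was not called, at 6.13, 6.23 and 6.33 FPKM with morusinol against 6.55, 6.23 and 6.51 FPKM in control (log2 fold change -0.04 ± 0.0495, adjusted p = 0.590). SP100, a component of PML nuclear bodies, had 2.11, 2.66 and 2.28 FPKM in SU-DHL-8 with morusinol, against 3.08, 3.25 and 3.36 FPKM in control. Its Farage values were 7.02, 6.5001 and 6.98 FPKM with morusinol, against 8.78, 8.83 and 8.70 FPKM in control. SP100 fell in both lines (-0.34 and -0.32), with adjusted p = 0.00100 in SU-DHL-8 and 0.00182 in Farage.
IFI16 had 39.2, 40.9 and 44.4 FPKM in Farage with morusinol, against 48.6, 48.5 and 47.4 FPKM in control (log2 fold change -0.21 ± 0.0437, adjusted p = 0.00258), a call lost after rescaling over protein-coding genes (adjusted p = 0.0504). The SU-DHL-8 values were 122, 128 and 130.3 FPKM with morusinol, against 115, 115 and 117 FPKM in control (log2 fold change 0.13 ± 0.0437, adjusted p = 0.0320). The IFI16 call in SU-DHL-8 was lost without any one of the 3 control replicates or morusinol replicate 2 or 3, with adjusted p up to 0.109, after rescaling to TPM (0.02, adjusted p = 0.831) and under median-of-ratios scaling (0.04, adjusted p = 0.513). That call was lost too with the replicate number as a block (adjusted p = 0.0771) and with another prior (0.0685). Testing all genes above 0 in at least 3 libraries also ended it (0.0512).

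Of the remaining induced genes, IFI6, a mitochondrial and endoplasmic reticulum protein, had 2.70, 3.14 and 1.845 FPKM in Farage with morusinol, against 6.45, 4.37 and 6.83 FPKM in control (log2 fold change -0.95 ± 0.204, adjusted p = 0.00347). In SU-DHL-8 it averaged 1.07 ± 0.507 FPKM with morusinol and 2.15 ± 0.304 FPKM in control (log2 fold change -0.63 ± 0.204, adjusted p = 0.0272), and this call was lost without control replicate 2 (adjusted p = 0.0684) or 3 (0.0831) or morusinol replicate 2 (0.0980) or 3 (0.0829). With the replicate number as a block the SU-DHL-8 call was lost too (adjusted p = 0.0869). The treated SU-DHL-8 values of IFI6 rest on an estimated 16.2, 3.7 and 11.1 fragments. IFI6 was lower with morusinol in both lines. IFI35, a leucine zipper protein, had 3.85, 3.68 and 2.29 FPKM in Farage with morusinol, against 6.24, 6.55 and 6.70 FPKM in control (log2 fold change -0.83 ± 0.142, adjusted p = 0.000792). It had, in SU-DHL-8, 4.10, 3.37 and 4.16 FPKM with morusinol, against 4.48, 3.42 and 4.16 FPKM in control, and was not called, and the responses differed (log2 difference -0.79 ± 0.2003, adjusted p = 0.0114). EPSTI1 rose in both lines. It had 7.97, 7.72 and 7.66 FPKM in Farage with morusinol, against 6.75, 6.21 and 6.09 FPKM in control (log2 fold change 0.26 ± 0.0636, adjusted p = 0.00744), and 0.358, 0.403 and 0.353 FPKM in SU-DHL-8 with morusinol, against 0.0933, 0.136 and 0.165 FPKM in control (log2 fold change 0.28 ± 0.0636, adjusted p = 0.00427). With a pseudocount of 0.1 the Farage call of EPSTI1 was lost (adjusted p = 0.127).

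**Figure D4:**
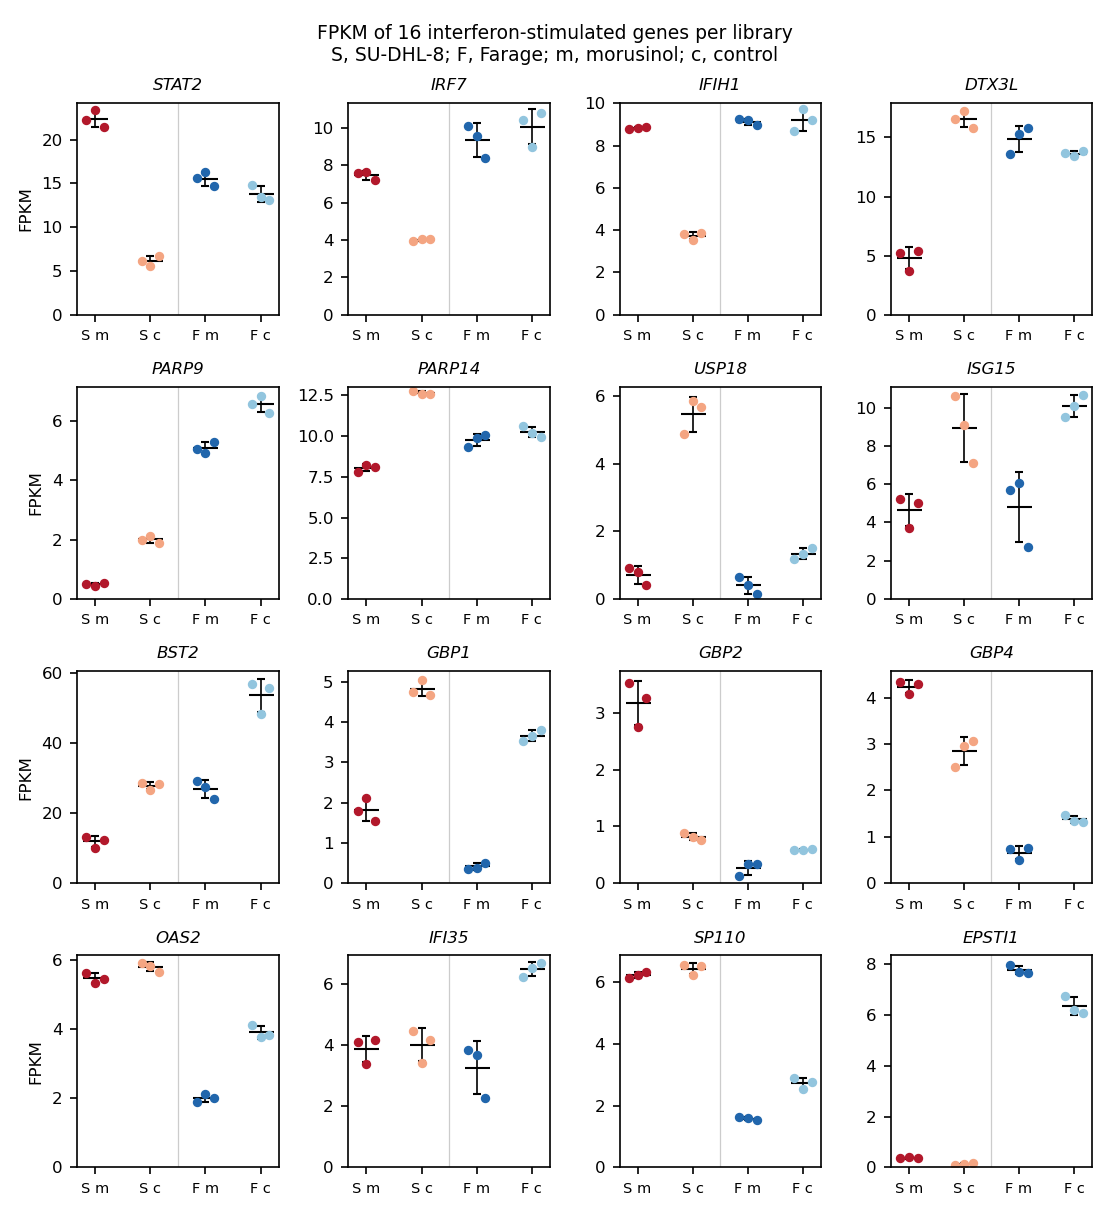
FPKM of 16 of the genes in each library, with the group mean and a bar of 1 SD over 3 libraries; S is SU-DHL-8, F is Farage, m is morusinol and c is control. STAT2 stands apart in SU-DHL-8 with morusinol, DTX3L is lowest there, and GBP1 is lowest in Farage with morusinol.

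Genes grouped by their calls were also set against the promoter letters described above. Among genes with a matched window, ISRE letters stood in 4 of the 6 called higher in SU-DHL-8, 8 of the 9 called lower and 4 of the 9 not called. In Farage they stood in 1 of the 2 called higher, 7 of the 13 called lower and 8 of the 9 not called. GAS letters stood in 1 of the 6 called higher, 3 of the 9 called lower and 6 of the 9 not called in SU-DHL-8. In Farage they stood in 2 of the 2 called higher, 6 of the 13 called lower and 2 of the 9 not called. A match is a description of letters and not a bound site.

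The 14 genes below the filter were set against a wider table of 34116 genes with a value above 0 in at least 3 libraries. There, 2 of all 47 were called higher and 23 lower in Farage, where the background was 12.6% and 11.8%, or 24.5% in either direction. In SU-DHL-8, 11 were called higher and 14 lower, where the background was 15.0% and 11.1%, or 26.1% in either direction. Of the genes added, IFI44 had a higher response in Farage than in SU-DHL-8, close to the threshold (adjusted p = 0.0499). IFI44L (0.0306) and HERC6 (0.0154) had a lower one. They were among 6 higher and 17 lower of the 47, where the background was 8.94% and 9.91%, or 18.9% in either direction. The fits that left out 1 library did not cover genes below the filter. Between the control groups 24 of the 47 were higher in Farage and 13 lower, where the background was 24.7% and 17.1%, or 41.8% in either direction. IFIT1, which binds RNA ends that lack the full host cap, had 0.120, 0 and 0 FPKM in Farage with morusinol, against 0.366, 0.385 and 0.379 FPKM in control (log2 fold change -0.41 ± 0.0693, adjusted p = 0.00152). In SU-DHL-8 it had 0, 0.143 and 0.101 FPKM with morusinol, against 0.384, 0.275 and 0.359 FPKM in control (log2 fold change -0.31 ± 0.0693, adjusted p = 0.00682). IFIT3, the partner of IFIT1, was also called lower in both lines, and IFIT2 was called higher in SU-DHL-8 (log2 fold change 0.34 ± 0.109, adjusted p = 0.0408).
IFI44 was called lower in SU-DHL-8, at 0.217, 0.405 and 0.262 FPKM with morusinol against 1.90, 1.47 and 0.796 FPKM in control (log2 fold change -0.86 ± 0.154, adjusted p = 0.00181). IFI44L, its relative, was called lower in Farage, at 0.146, 0.0506 and 0.121 FPKM with morusinol against 0.375, 0.412 and 0.532 FPKM in control (log2 fold change -0.38 ± 0.0533, adjusted p = 0.000417). XAF1, a pro-apoptotic factor, and DDX60, HERC6 and IFI27 were called lower in Farage too, with means of 0.396 ± 0.0491 FPKM with morusinol and 0.702 ± 0.0937 FPKM in control for XAF1. HERC5, the ligase that attaches ISG15, had 0.611, 0.468 and 1.16 FPKM in SU-DHL-8 with morusinol, against 0.806, 0.939 and 0.681 FPKM in control, and was called in neither line. RSAD2, OASL and CMPK2 were near 0 in every library. RSAD2 rests on an estimated 2.6 fragments or fewer in any library, CMPK2 on 7.3 or fewer and OASL on 7.8 or fewer, and none of the 3 was called after morusinol in either line.

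Upstream of the set, the interferon genes themselves were close to 0. None of the 10 ligand genes measured passed the filter, and IFNB1, the interferon beta gene, had at most 0.637 FPKM in any library. Its values were 0.210, 0.394 and 0.637 FPKM in SU-DHL-8 with morusinol, against 0, 0 and 0.0806 FPKM in control (log2 fold change 0.45 ± 0.133, adjusted p = 0.0300 in the wider table). IFNG, the interferon gamma gene, had 0.196, 0.264 and 0.0771 FPKM in Farage with morusinol, against 0.479, 0.866 and 0.772 FPKM in control (log2 fold change -0.53 ± 0.0873, adjusted p = 0.00126 in the wider table). Both were thus called at levels under the filter, and the fits that left out 1 library did not cover them.
The receptor chains changed. All 4 tested chains rose in Farage, where the background of rises was 21.9%. In SU-DHL-8, 2 rose and 2 fell, where the background in either direction was 46.8%. IFNAR2 and IL10RB did not pass the filter. IFNAR1 had 15.6, 14.7 and 15.9 FPKM in Farage with morusinol, against 8.09, 8.32 and 7.78 FPKM in control (log2 fold change 0.86 ± 0.0559, adjusted p = 8.60e-07). The SU-DHL-8 values were 14.8, 15.8 and 16.7 FPKM with morusinol, against 10.9, 12.3 and 11.3 FPKM in control (log2 fold change 0.42 ± 0.0559, adjusted p = 0.000107). IFNAR1 thus rose in both lines, as did IFNGR1, by 0.92 ± 0.0857 in Farage and 0.45 ± 0.0857 in SU-DHL-8. IFNGR2 changed by 0.69 ± 0.0689 in Farage and -0.24 ± 0.0689 in SU-DHL-8, and its SU-DHL-8 call was lost without control replicate 2 or 3 or morusinol replicate 2, with adjusted p up to 0.0640. IFNLR1, the interferon lambda receptor, changed by 0.41 ± 0.0503 in Farage and -0.67 ± 0.0503 in SU-DHL-8.
JAK1, the kinase shared by these receptors, had 27.2, 26.5 and 25.7 FPKM in SU-DHL-8 with morusinol, against 13.5, 13.5 and 13.1 FPKM in control (log2 fold change 0.94 ± 0.0334, adjusted p = 7.86e-09). The Farage values were 41.5, 40.7 and 41.7 FPKM with morusinol, against 25.3, 24.1 and 24.2 FPKM in control (log2 fold change 0.73 ± 0.0334, adjusted p = 6.21e-08). JAK1 rose in both lines, whereas JAK2 and TYK2 rose in SU-DHL-8 and fell in Farage. JAK2 changed by 0.42 ± 0.0862 in SU-DHL-8 and -0.33 ± 0.0862 in Farage, and TYK2 by 0.43 ± 0.0703 in SU-DHL-8 and -0.20 ± 0.0703 in Farage. The TYK2 call in Farage was lost in 6 of the 12 fits, with adjusted p up to 0.141: those without SU-DHL-8 control replicate 3, SU-DHL-8 morusinol replicate 2, Farage control replicate 1 or 2, or Farage morusinol replicate 2 or 3.

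**Figure D5:**
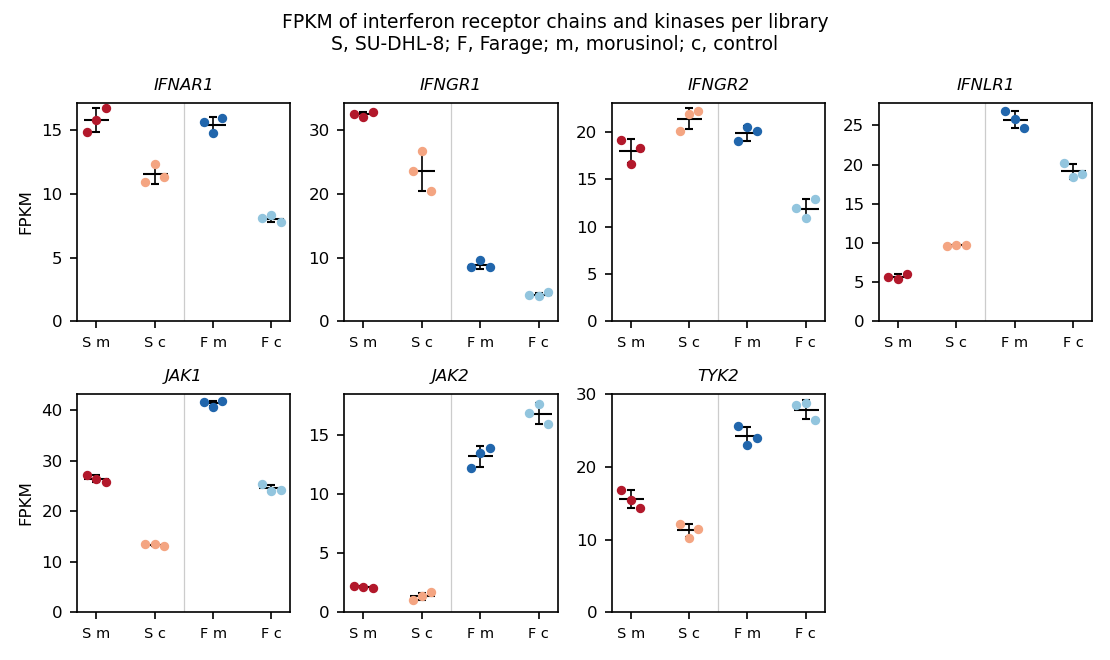
FPKM of 4 receptor chains and 3 kinases in each library, with the group mean and a bar of 1 SD over 3 libraries; S is SU-DHL-8, F is Farage, m is morusinol and c is control. JAK1 and IFNAR1 are higher with morusinol in both lines.

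The pathway list outside the set held 70 genes, of which 52 were tested, with 14 called higher and 21 lower in SU-DHL-8 and 6 higher and 28 lower in Farage. The background over all tested genes was 25.1% higher and 21.6% lower in SU-DHL-8 and 21.9% higher and 21.2% lower in Farage. Of its 28 tested interferon-induced genes, 6 were higher and 13 lower in SU-DHL-8 and 1 higher and 16 lower in Farage, against the same background shares. SAMHD1, which depletes nucleotides needed by viruses, changed by -1.12 ± 0.0502 in SU-DHL-8 and -0.95 ± 0.0502 in Farage, and LAP3, an aminopeptidase, by -0.89 ± 0.0434 in SU-DHL-8 and -0.76 ± 0.0434 in Farage. CXCL10, a chemokine of the interferon gamma response, had 3.45, 3.44 and 3.70 FPKM in SU-DHL-8 with morusinol, against 0.224, 0.180 and 0.0288 FPKM in control (log2 fold change 1.99 ± 0.107, adjusted p = 1.28e-07). It had, in Farage, 0.0673, 0.182 and 0.238 FPKM with morusinol, against 0.988, 1.24 and 1.03 FPKM in control (log2 fold change -0.84 ± 0.107, adjusted p = 0.000102). CXCL10 moved in opposite directions in the lines (log2 difference -2.83 ± 0.152, adjusted p = 6.27e-07). Outside SU-DHL-8 with morusinol, CXCL10 reached 1 FPKM only in Farage control, at 1.24 and 1.03 FPKM. Its passing the filter thus rests on the group where it was high.
Of the 11 tested sensing genes, 2 were higher and 4 lower in SU-DHL-8, and 6 were lower in Farage, where the background was 25.1% higher and 21.6% lower in SU-DHL-8 and 21.2% lower in Farage. MYD88, an adaptor of Toll-like receptors, fell in both lines, with changes of -0.86 ± 0.0579 in SU-DHL-8 and -0.87 ± 0.0579 in Farage. IRF5, an inflammatory transcription factor, changed by 0.63 ± 0.0539 in SU-DHL-8 and 0.03 ± 0.0539 in Farage, where it was not called. IRF8, a B cell and myeloid transcription factor, averaged 89.8 ± 2.26 FPKM in Farage with morusinol and 119.6 ± 4.37 FPKM in control (log2 fold change -0.41 ± 0.0370, adjusted p = 8.35e-06), and had at most 0.0170 FPKM in any SU-DHL-8 library. Among negative regulators, PTPN6, a phosphatase acting on JAK kinases, fell in both lines, with changes of -1.38 ± 0.0769 in SU-DHL-8 and -1.03 ± 0.0769 in Farage. TRIM21, a cytosolic antibody receptor, changed by -0.63 ± 0.0822 in SU-DHL-8 and -0.23 ± 0.0822 in Farage, a call lost in 11 of the 12 fits, all but the one without Farage control replicate 2, with adjusted p up to 0.147. SOCS1, the feedback inhibitor of JAK kinases, changed by 0.67 ± 0.124 in SU-DHL-8 and 0.33 ± 0.124 in Farage, where it was not called.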

How the data were processed

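RNA was sequenced from 12 libraries, 3 in each of 4 groups, prepared with a SMARTer mRNA-seq kit per the labels' protocols. The authors deposited 1 table of FPKM values, and no counts were used. The sources used here name no aligner, annotation or counting strand. The submitters' processing notes list GRCm38 and mm10, both mouse builds, although all 61466 gene identifiers are human ones of Ensembl. Gene types and exon overlaps came from GENCODE release 29, which held 94.8% of the identifiers, and promoter windows from RefSeq. The members and lists were chosen with earlier results of these data known.

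Genes with at least 1 FPKM in at least 3 libraries, 17574 in all, were fitted with limma 3.58.1 in R 4.3.3 on log2(FPKM + 1). The fit used all 12 libraries with 1 mean per group and a trended, robust prior, with two-sided p-values and Benjamini-Hochberg adjustment over these genes. The step was tested on simulated data. Values of every library are given for genes of the set with a mean of at least 5 FPKM in a compared group and a call in either line, and for STAT2 and the IRF genes; others shown in full were chosen after their values were seen. Of the pathway list, up to 3 genes per class were named by smallest p, with every ligand, receptor and kinase eligible. A gene of this list is not reported here. Depth was estimated from the steps of low FPKM values, of which 48.8% to 52.9% per library fell within 0.02 of a whole or a 0.5 step of 1 fragment. Because the estimate is partial, no count test was run. The alternatives were another pseudocount, other filters, other scalings, another prior, each line fitted alone, a replicate block and leaving out each library in turn. Rescaling over protein-coding genes was added after the data were seen.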

Additional observations from a re-analysis of the deposited data

Results flagged for a closer look

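For 20 of the 33 tested genes the change after morusinol differed between the lines, by the limma test of the response in Farage minus that in SU-DHL-8 at an adjusted p under 0.05, where the background over all genes was 34.9%. The genes with the most negative differences were STAT2 at -1.55, GBP2 at -1.53 and IFIH1 at -1.06. Next were GBP4 at -0.97, ISG20 at -0.96, IRF7 at -0.85, IFI35 at -0.79, DHX58 at -0.68 and GBP1 at -0.67. Differences of smaller size were found for OAS2 at -0.63, OAS1 at -0.54, SP110 at -0.49, TRIM22 at -0.48, MX2 at -0.44 and IFI16 at -0.34. The differences were positive for DTX3L at 1.73, USP18 at 1.17, IFITM2 at 0.99, PARP9 at 0.70 and PARP14 at 0.53. No fit without 1 library ended any of these 20 calls. GBP2, however, passed the filter only through SU-DHL-8 with morusinol, the group where it was high. In GBP4, IFI16, MX2 and GBP2 the change was called higher in SU-DHL-8 and lower in Farage, although single libraries ended the SU-DHL-8 calls of IFI16 and MX2 and the Farage calls of MX2 and GBP2. The SU-DHL-8 changes were 0.02 for IFI16 (adjusted p = 0.831) and 0.12 for MX2 (0.189) after rescaling to TPM, and 0.04 (0.513) and 0.14 (0.145) under median-of-ratios scaling. The Farage calls of IFI16 and MX2 were lost after rescaling over protein-coding genes, with adjusted p = 0.0504 and 0.0605.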

How the results depend on the processing

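Of the 23 genes called in SU-DHL-8, 17 were called under every alternative that tested them, and of the 19 called in Farage, 13 were; none changed sign. With a pseudocount of 0.1, 1 gene was called higher in Farage, against 2. With at least 5 FPKM required in at least 3 libraries, which tests fewer genes, Farage had 9 lower calls against 17, the response difference 3 higher against 5 and 9 lower against 15, and Farage control over SU-DHL-8 control 11 higher against 19. Without 1 library at a time, calls in SU-DHL-8 were 9 to 12 higher and 9 to 11 lower, and in Farage 2 to 3 higher and 13 to 17 lower. The response difference had 5 to 6 higher and 15 lower, and the control lines 19 higher and 10 to 11 lower. With the replicate number as a block, SU-DHL-8 had 9 higher and 10 lower calls, Farage 2 and 13, the response difference 5 and 14, and the control lines 18 and 10. Same-numbered libraries deviated together with correlations of -0.016 to 0.033 in SU-DHL-8 and -0.079 to 0.031 in Farage. Differently numbered libraries did so with -0.038 to 0.042 in SU-DHL-8 and -0.096 to 0.115 in Farage. The titles give only the replicate number, and whether same-numbered libraries shared a culture or batch was not tested. FPKM values carry no exact depth, and genes under 1 FPKM are the least certain.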
